A study of Mus musculus with 8 samples.

Results

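B cell and MHC class II transcripts were followed through sorted naive T cells, with 9 genes in all. Of these, 5 are B cell genes (Cd79a, Cd79b, Ms4a1, Ebf1 and Bank1) and 4 belong to the class II branch of the major histocompatibility complex, MHC (Cd74, H2-Aa, H2-Ab1 and H2-Eb1). They were picked by symbol from the 23337 gene symbols of the 8 library tables, as a measure of B cell RNA in the sorted cells. All 9 were listed above 0 in every library, and all 9 passed the filter (mean over the libraries of 1 TPM or more) that left 11786 genes for testing. TPM is a transcript's share of the library, scaled to the same total everywhere and corrected for length, so levels can be set side by side between genes.

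The libraries hold total RNA of naive T cells (CD62L+CD44low), sorted as CD4 or CD8 cells from the mesenteric lymph nodes and spleens (mLNs and spleens in the labels) of mice 4 weeks old. The title of every library carries the word FRESH. Mice were CD4-cre Trappc1 cKO (KO below) or WT. CD4-cre switches on in developing T cells and acts in both lineages, and B cells are not its target. Trappc1 encodes a subunit of the TRAPP vesicle tethering complexes. Each of the 4 groups, CD8 KO, CD8 WT, CD4 KO and CD4 WT, had 2 libraries, and the labels do not say whether these came from separate or pooled mice, or whether the WT mice carried CD4-cre. All p-values therefore rest on a spread between libraries that may be technical.

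B cells recognise antigen through a membrane immunoglobulin that signals through a pair of partner chains, and they are also professional antigen-presenting cells. Class II molecules are heterodimers of an alpha and a beta chain. They fold in the endoplasmic reticulum around the invariant chain, exchange a fragment of it for an antigen peptide in endosomes, and show that peptide to CD4 T cells. Mature B cells and dendritic cells make class II constantly and macrophages can make it, whereas mouse T cells make little of it.

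The lineage genes matched the sort. Cd4 was at 0 to 14.5 TPM in the CD8 libraries and at 543 to 764 TPM in the CD4 libraries, and Cd8a was at 163 to 548 TPM in the CD8 libraries and at 1.28 to 4.10 TPM in the CD4 libraries. One of the 8, the library labelled CD8 WT replicate 2, differed in make-up. Its summed erythroid, neutrophil and macrophage markers were at 93129, 27137 and 3522 TPM, against at most 2252, 1260.4 and 1047 TPM in the other 7 libraries, and its 14 T cell genes summed to 8232 TPM against 12797 to 18606. Trappc1 itself was at 56.9 and 45.6 TPM in CD8 KO and at 81.2 and 40.3 TPM in CD8 WT, where the lower value belongs to that library and goes against its label. In CD4 cells Trappc1 was at 30.5 and 32.8 TPM in KO and at 78.7 and 55.0 TPM in WT. The depth was 3.03 to 4.01 gigabases of aligned sequence a library.

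Together the 9 genes made up 0.203% and 0.263% of all transcripts in the CD8 KO libraries, 0.198% and 2.58% in CD8 WT, 0.684% and 0.629% in CD4 KO and 1.53% and 1.11% in CD4 WT. The 2.58% came from the library labelled CD8 WT replicate 2. Without it, the 3 CD8 libraries lay below all 4 CD4 libraries. Cd74 was the most abundant member, with a mean of 3944 TPM over the 8 libraries, which placed it at rank 18 of all symbols. Bank1 was the least abundant, with a mean of 36.6 TPM and a rank of 4409. The spread between the highest and lowest library was smallest for Cd79a, at 6.86-fold, and largest for Ebf1, at 238-fold. In bulk RNA of this kind, fewer B cells and less RNA per B cell cannot be told apart. For the class II genes, RNA of B cells cannot be told apart from that of other cells that make class II either.

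**Figure D1:**
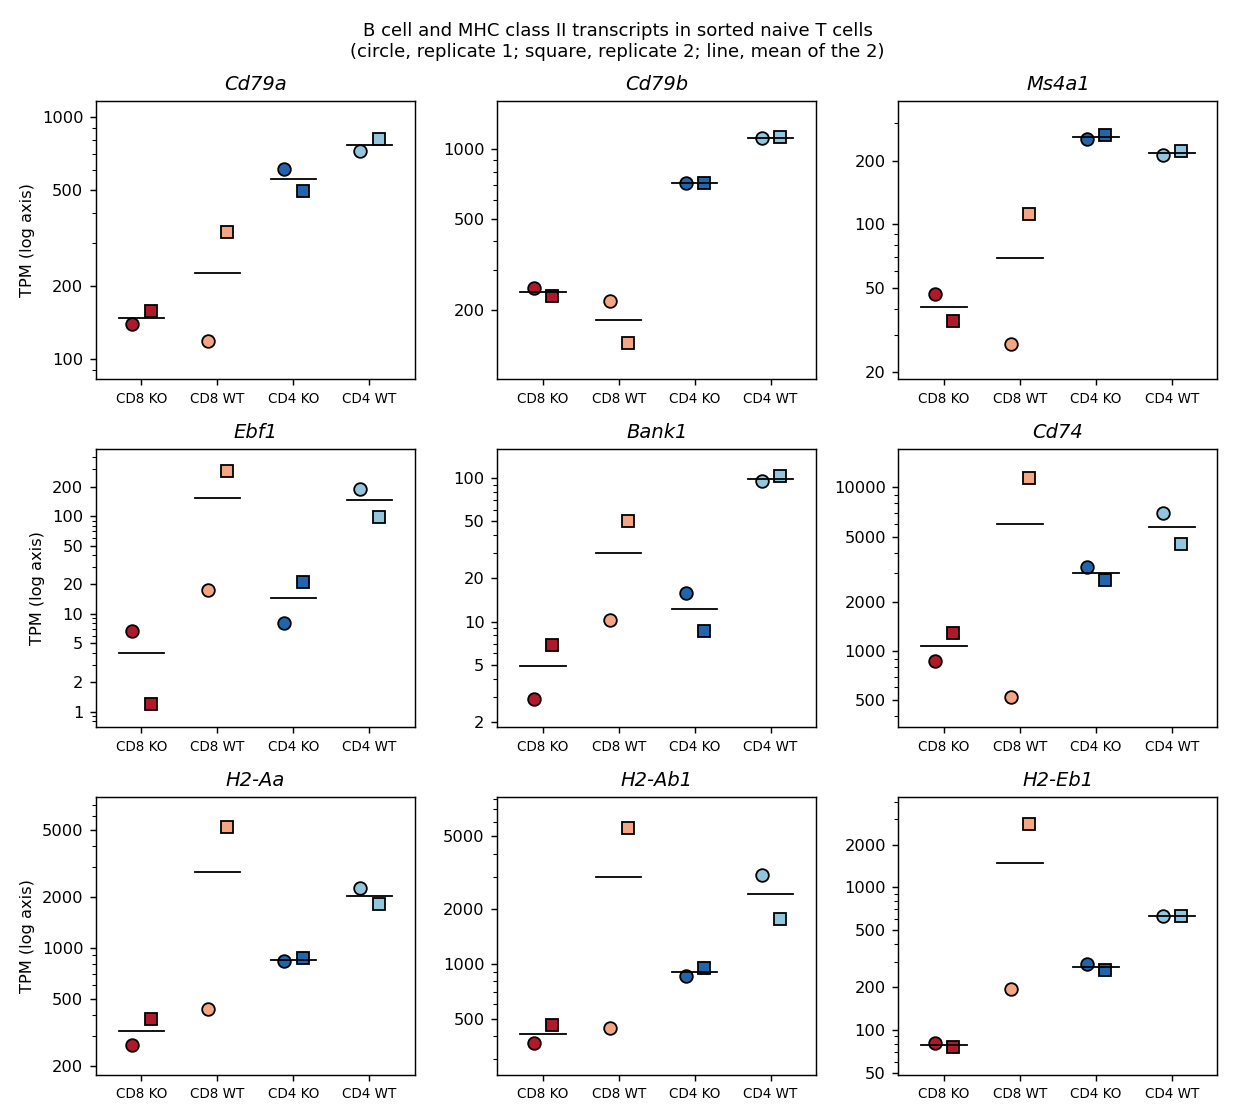
Level of each of the 9 genes in TPM (vertical axis, logarithmic) in the 4 groups, with a circle for replicate 1, a square for replicate 2 and a line at the mean of the 2. Cd79a, Cd79b and Ms4a1 were lower in every CD8 library than in every CD4 library, whereas the class II genes, Ebf1 and Bank1 also stood high in the library labelled CD8 WT replicate 2.

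The first comparison set CD8 cells against CD4 cells, averaged over the genotypes. The B cell genes Cd79a, Cd79b and Ms4a1 were 3.76-fold, 4.31-fold and 4.93-fold lower in CD8 cells, and in each of them all 4 CD8 libraries lay below all 4 CD4 libraries. These 3 of 9 genes passed the test, a moderated linear model (limma) of log2(TPM + 1), in which Benjamini-Hochberg p-values over all tested genes had to be under 0.05. Of all genes tested, 0.755% were called in this comparison in either direction and 0.373% as lower in CD8 cells, and 2.95% had all CD8 libraries below all CD4 libraries.

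Cd79a (chr7:24897511-24902197, plus strand in mm10, as all positions of genes here) encodes Ig-alpha, a signalling partner chain of the B cell receptor. It had 139 and 157 TPM in CD8 KO, 118 and 336 TPM in CD8 WT, 609 and 494 TPM in CD4 KO and 722 and 812 TPM in CD4 WT. The log2 difference between CD8 and CD4 cells was -1.91 ± 0.31 (SE; limma, adjusted p = 0.0233). Cd79b (chr11:106311341-106314529, minus strand) encodes Ig-beta, the other partner chain, and was at 249 and 231 TPM in CD8 KO, 218 and 145 TPM in CD8 WT, 711 and 712 TPM in CD4 KO and 1116 and 1127 TPM in CD4 WT. No other member kept its replicates so close in both CD4 groups. Its log2 difference was -2.11 ± 0.20 (SE; limma, adjusted p = 0.00120).

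Ms4a1 (chr19:11250603-11266151, minus strand) encodes CD20, a membrane protein of B cells from the pre-B stage on. In the files it overlaps 4930526L06Rik, so reads in the overlap are uncertain. It was at 46.8 and 34.9 TPM in CD8 KO, 27.1 and 112 TPM in CD8 WT, 255 and 264 TPM in CD4 KO and 212 and 222 TPM in CD4 WT. The groups of the CD4 lineage thus stood above every CD8 library, by a log2 difference of -2.30 ± 0.38 for CD8 minus CD4 (SE; limma, adjusted p = 0.0282). Cd79b was called in all 18 alternative settings, at an adjusted p of at most 0.0305. Cd79a and Ms4a1 were each called in 9 of them, with adjusted p up to 0.269 and 0.259, and lost the call when any 1 library of CD8 KO, CD4 KO or CD4 WT was left out. Without such a library the lowest adjusted p was 0.147 for Cd79a (CD4 WT replicate 1) and 0.153 for Ms4a1 (CD8 KO replicate 1).

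Ebf1 and Bank1 did not keep all CD8 libraries below all CD4 libraries, as these 3 genes did. Within each genotype, both CD8 libraries still lay below both CD4 libraries for Bank1, and within KO also for Ebf1. Of all genes, 24.8% did so within WT and 25.8% within KO. Ebf1 (chr11:44618134-45005172, plus strand) encodes a transcription factor that commits progenitors to the B cell lineage. It was at 6.77 and 1.20 TPM in CD8 KO, 17.6 and 286 TPM in CD8 WT, 7.99 and 21.1 TPM in CD4 KO and 191 and 98.8 TPM in CD4 WT. In each lineage both KO libraries thus lay below both WT libraries, beside 19.1% of all genes in CD8 cells and 36.5% in CD4 cells. The highest value was in the library labelled CD8 WT replicate 2. Bank1 (chr3:136053364-136326046, minus strand) encodes a scaffold of B cell receptor signalling. It was at 2.87 and 6.90 TPM in CD8 KO, 10.2 and 49.9 TPM in CD8 WT, 15.9 and 8.57 TPM in CD4 KO and 95.4 and 103 TPM in CD4 WT. For CD8 minus CD4 cells the log2 differences were -1.35 ± 0.78 for Ebf1 (SE; limma, adjusted p = 0.570) and -1.63 ± 0.49 for Bank1 (SE; limma, adjusted p = 0.256), and neither passed.

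The class II genes were the most abundant members. Cd74 (chr18:60803849-60812652, plus strand), which overlaps Mir5107 in the files, encodes the invariant chain. It was at 868 and 1287 TPM in CD8 KO, 523 and 11372 TPM in CD8 WT, 3265 and 2719 TPM in CD4 KO and 7008 and 4509.8 TPM in CD4 WT. The CD8 WT group thus held both the lowest and the highest library. H2-Aa (chr17:34282751-34287771, minus strand) and H2-Ab1 (chr17:34263227-34269418, plus strand) encode the alpha and beta chains of I-A. H2-Aa was at 267 and 377 TPM in CD8 KO, 432 and 5199 TPM in CD8 WT, 829 and 864 TPM in CD4 KO and 2258 and 1806 TPM in CD4 WT. H2-Ab1 was at 367 and 459.6 TPM in CD8 KO, 445 and 5519.7 TPM in CD8 WT, 858 and 947 TPM in CD4 KO and 3064 and 1747 TPM in CD4 WT. The 2 chains of I-A kept close to each other, with 0.726 to 1.03 times as much H2-Aa as H2-Ab1 in the 8 libraries.

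H2-Eb1 (chr17:34305867-34316674, plus strand) encodes the beta chain of I-E. It was at 81.6 and 75.4 TPM in CD8 KO, 192 and 2787 TPM in CD8 WT, 289 and 263 TPM in CD4 KO and 631 and 633 TPM in CD4 WT. H2-Eb1 was thus the lowest of the 4 class II genes in every library. For CD8 minus CD4 cells the log2 differences were -1.35 ± 0.75 for Cd74, -0.92 ± 0.61 for H2-Aa, -0.85 ± 0.63 for H2-Ab1 and -0.79 ± 0.64 for H2-Eb1 (SE). None of these 4 differences passed (limma, adjusted p = 0.551 to 0.691). With the library labelled CD8 WT replicate 2 left out, the fit called 8 of the 9 genes as lower in CD8 cells, all but Ebf1 (adjusted p = 0.106), against 2.14% of all genes called in that fit. That fit leaves 1 CD8 WT library, which is assumed to vary like the other groups. Without replicate 1 of CD8 WT the same 3 genes as with all libraries were called, beside 6.97% of all genes, and the differences of H2-Ab1 and H2-Eb1 turned to 0.06 and 0.17.

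Promoter sequence was at hand for 5 of the 9 genes. The 2 class II promoters are shown, since class II genes share conserved promoter boxes and H2-Aa and H2-Eb1 both stood highest in the library labelled CD8 WT replicate 2 and lowest in CD8 KO. The sequences are the 150 bases before the RefSeq start (GRCm38.p6), 5′ to 3′ on the strand of the gene. H2-Aa is chr17:34287824-34287973 on the minus strand, and H2-Eb1 is chr17:34305717-34305866 on the plus strand.
H2-Aa: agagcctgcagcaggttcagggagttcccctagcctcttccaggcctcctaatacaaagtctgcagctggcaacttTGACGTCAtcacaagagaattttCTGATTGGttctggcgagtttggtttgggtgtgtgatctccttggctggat
H2-Eb1: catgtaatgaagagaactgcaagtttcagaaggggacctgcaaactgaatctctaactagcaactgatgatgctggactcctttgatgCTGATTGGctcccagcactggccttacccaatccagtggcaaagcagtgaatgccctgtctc
Capitals mark exact matches to the letters searched on both strands. These were CTGATTGG, a form of the Y box that binds NF-Y, TGACGTCA, a form of the X2 box whose letters are also the cyclic AMP response element, and the octamer ATGCAAAT known from B cell promoters. H2-Aa held the X2 letters at -74 to -67 and the Y letters at -51 to -44 from the start, and H2-Eb1 held the Y letters at -62 to -55. Among 32475 windows of this length in the RefSeq table, 3.13% held the Y letters, 1.37% the X2 letters and 1.01% the octamer. The windows of Cd79a, Ebf1 (2 starts) and Bank1 held none of the 3.

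Group means put these levels in order. Cd79a averaged 148 ± 13.0 TPM in CD8 KO, 227 ± 154 TPM in CD8 WT, 552 ± 81.4 TPM in CD4 KO and 767 ± 63.2 TPM in CD4 WT (SD, n = 2 each), an order in which the 2 CD8 groups overlapped and the others did not. Cd79b averaged 240.3 ± 12.8 TPM in CD8 KO, 182 ± 52.2 TPM in CD8 WT, 711 ± 0.260 TPM in CD4 KO and 1121 ± 7.76 TPM in CD4 WT, and no neighbours in its order overlapped. Ms4a1 averaged 40.9 ± 8.42 TPM in CD8 KO, 69.7 ± 60.3 TPM in CD8 WT, 259 ± 6.41 TPM in CD4 KO and 217 ± 6.86 TPM in CD4 WT, so CD4 KO came first, and the CD8 groups overlapped. In Ebf1 and all 4 class II genes CD8 WT had the highest mean, CD4 WT the next, then CD4 KO and CD8 KO. The SD of CD8 WT was larger than its mean in each of these 5 genes, and CD8 WT overlapped CD4 WT in all 5. Bank1 averaged 4.89 ± 2.85 TPM in CD8 KO, 30.1 ± 28.1 TPM in CD8 WT, 12.2 ± 5.17 TPM in CD4 KO and 99.1 ± 5.30 TPM in CD4 WT, where CD8 WT and CD4 KO overlapped.

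The 2 groups of genes were then set against each other within a library. The 4 class II genes summed to 3.56 and 5.09 times the 5 B cell genes in CD8 KO, 4.06 and 26.8 times in CD8 WT, 3.28 and 3.20 times in CD4 KO and 5.55 and 3.68 times in CD4 WT. The library labelled CD8 WT replicate 2 thus lay at 26.8, and the 7 other libraries between 3.20 and 5.55. The sum of these 5 B cell genes in that library, 928 TPM, was between those of the other CD8 libraries (392 to 445 TPM) and those of the CD4 libraries (1499 to 2362 TPM). Its class II sum of 24878 TPM was above every other library (1583.5 to 12961 TPM).

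**Figure D2:**
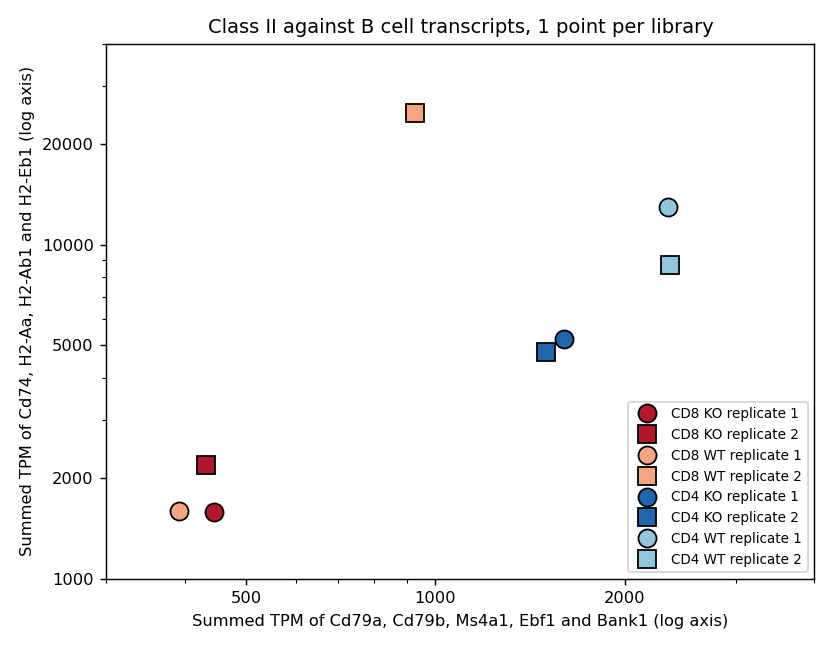
Summed TPM of the 4 class II genes (vertical axis, logarithmic) against summed TPM of the 5 B cell genes (horizontal axis, logarithmic), 1 point per library, colours for groups, circles for replicate 1 and squares for replicate 2. The 7 other libraries ran from 1583.5 to 12961 TPM of class II, while the library labelled CD8 WT replicate 2 stood at 24878 TPM with 928 TPM of B cell genes.

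The B cell genes of that library also had other proportions. Cd79b was 1.79 and 1.47 times Cd79a in CD8 KO, 1.85 and 0.431 times in CD8 WT, 1.17 and 1.44 times in CD4 KO and 1.54 and 1.39 times in CD4 WT, so only the library labelled CD8 WT replicate 2 had less Cd79b than Cd79a. Ms4a1 was 0.222 to 0.533 times Cd79a, a narrower range. Ebf1 was 0.0487 and 0.00761 times Cd79a in CD8 KO, 0.148 and 0.851 times in CD8 WT, 0.0131 and 0.0427 times in CD4 KO and 0.265 and 0.122 times in CD4 WT. Both CD4 KO libraries and both CD8 KO libraries lay below all 4 WT libraries in this ratio. Bank1 against Cd79a showed the same order, with 0.0206 and 0.0438 in CD8 KO, 0.0865 and 0.149 in CD8 WT, 0.0261 and 0.0173 in CD4 KO and 0.132 and 0.127 in CD4 WT. The share of all genes with this order against Cd79a was not determined. Among tested genes spanning at least 200 kb of genome, as Ebf1 and Bank1 do, 91.5% were lower in KO in each lineage. Among those under 20 kb, as Cd79a is, 35.3% were lower in CD8 KO and 43.8% in CD4 KO.

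Measured against T cell RNA, the B cell sum was 0.270 and 0.282 times the summed Cd3d, Cd3e and Cd3g in CD8 KO, 0.329 and 1.72 times in CD8 WT, 1.24 and 1.25 times in CD4 KO and 2.05 and 2.08 times in CD4 WT. The class II sum was 0.962 and 1.44 times the Cd3 sum in CD8 KO, 1.34 and 46.0 times in CD8 WT, 4.06 and 4.00 times in CD4 KO and 11.3 and 7.65 times in CD4 WT. The CD4 libraries held more B cell RNA per Cd3 RNA than 3 of the 4 CD8 libraries. In CD4 cells the Cd3 sum was at 1292 and 1198 TPM in KO and 1142 and 1136 TPM in WT. The 14 T cell genes went the other way, with 12797 and 13767 TPM in KO and 17099 and 16568 TPM in WT. The size of the gap between the CD4 genotypes in these ratios thus depends on the T cell genes chosen. The library labelled CD8 WT replicate 2, whose Cd3 sum of 541 TPM was below the 1136 to 1645.5 TPM of the others, lay among the CD4 libraries in the B cell ratio and above all of them in the class II ratio.

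Within WT cells, the CD8 and CD4 libraries separated in 4 B cell genes (Cd79a, Cd79b, Ms4a1 and Bank1) and in no class II gene, beside 24.8% of all genes with both CD8 WT libraries below both CD4 WT libraries. Cd79b alone passed, with a log2 difference of -2.65 ± 0.28 (SE; limma, adjusted p = 0.00570), where 0.195% of all genes were called. That call was lost without CD4 WT replicate 1 (adjusted p = 0.160) and without CD4 WT replicate 2 (adjusted p = 0.151). With the library labelled CD8 WT replicate 2 left out, 7 members passed as lower in CD8 WT, all but Ebf1 and Bank1, beside 0.611% of all genes. Without CD8 WT replicate 1, Cd79a, Cd79b and Ms4a1 passed as lower and H2-Aa, H2-Ab1 and H2-Eb1 as higher in CD8 WT (log2 differences 1.36, 1.25 and 2.14), beside 13.8% of all genes, and Cd74 and Ebf1 turned to 1.02 and 1.05.

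Within KO cells all 9 genes had both CD8 libraries below both CD4 libraries, beside 25.8% of all genes. None passed (limma, 0 of 9, beside 0.28% of all genes called), and 3 of them, Cd79a, Cd79b and Ms4a1, had an unadjusted p under 0.05, beside 9.52% of all genes. The largest log2 difference was that of Ms4a1, -2.65 ± 0.54 (SE; limma, adjusted p = 0.111), followed by Cd79a at -1.88 ± 0.43 (adjusted p = 0.149) and H2-Eb1 at -1.80 ± 0.91 (adjusted p = 0.571). With either CD8 WT library left out of the pooled spread, 5 genes passed, beside 1.26% of all genes where that was the library labelled CD8 WT replicate 2.

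**Figure D3:**
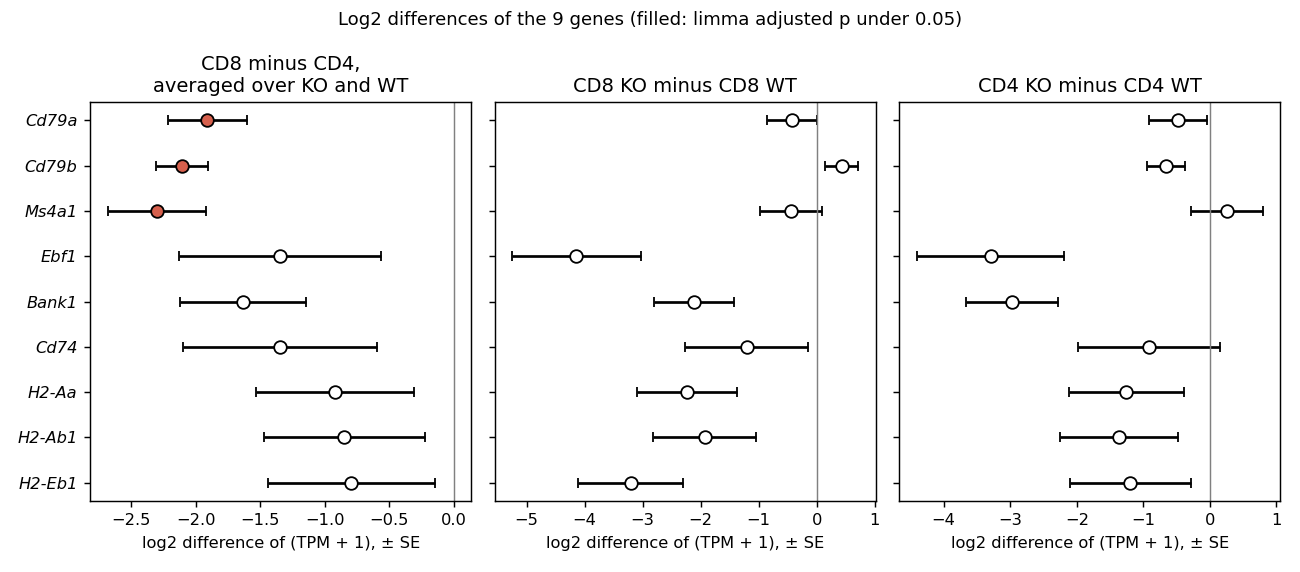
Log2 difference of (TPM + 1) with its SE (horizontal axis) for each of the 9 genes in CD8 minus CD4 cells averaged over genotypes (left), CD8 KO minus CD8 WT (middle) and CD4 KO minus CD4 WT (right), from limma on 8 libraries. Filled points passed at an adjusted p under 0.05, which only Cd79a, Cd79b and Ms4a1 did, in the left panel, at -1.91, -2.11 and -2.30.

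In CD4 cells, the comparison of KO with WT asked whether the B cell signal differed between genotypes. Both KO libraries lay below both WT libraries in 8 of the 9 genes, beside 36.5% of all genes, and Ms4a1 was the exception, with both KO libraries above, beside 21.7% of all genes. None of the 9 passed (limma, 0 of 9, beside 0.713% of all genes called), and 3 B cell genes and 0 class II genes had an unadjusted p under 0.05, beside 16.7% of all genes. Bank1 came nearest, at a mean of 12.2 ± 5.17 TPM in KO and 99.1 ± 5.30 TPM in WT (SD, n = 2 each), a log2 difference of -2.98 ± 0.69 (SE; limma, adjusted p = 0.0855). Ebf1 averaged 14.5 ± 9.25 TPM in KO and 145 ± 65.4 TPM in WT (SD, n = 2 each), at -3.30 ± 1.11 (SE; limma, adjusted p = 0.182).

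The log2 differences between the CD4 genotypes were smaller in size for Cd79b, Cd79a and Ms4a1. Cd79b had a log2 difference of -0.66 ± 0.28 (SE; limma, adjusted p = 0.287), Cd79a of -0.48 ± 0.43 (adjusted p = 0.606) and Ms4a1 of 0.25 ± 0.54 (adjusted p = 0.851). The class II genes lay between these and the pair of Ebf1 and Bank1, from -0.92 ± 1.06 for Cd74 (adjusted p = 0.702) to -1.36 ± 0.89 for H2-Ab1 (adjusted p = 0.469). Over the 5 B cell genes the median was -0.66, against -0.16 over all genes tested. Leaving out either CD8 WT library, which takes no part in this contrast but enters the pooled spread, called 6 members as lower in KO, beside 6.43% of all genes without replicate 1. With the library labelled CD8 WT replicate 2 left out these were H2-Eb1 (adjusted p = 0.0141), Bank1 (0.0205), H2-Aa (0.0226), H2-Ab1 (0.0338), Ebf1 (0.0420) and Cd79b (0.0434), beside 6.52% of all genes.

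In CD8 cells, Ebf1, Bank1, H2-Aa and H2-Eb1 had both KO libraries below both WT libraries, beside 19.1% of all genes, and Cd79b had both above, beside 23.0%. None of the 9 passed (limma, 0 of 9, beside 0.297% of all genes called), and 2 B cell and 2 class II genes had an unadjusted p under 0.05, beside 15.1% of all genes. The log2 differences of KO minus WT were -4.14 ± 1.11 for Ebf1 (SE; limma, adjusted p = 0.171), -3.21 ± 0.91 for H2-Eb1 (0.183), -2.24 ± 0.86 for H2-Aa (0.278), -2.11 ± 0.69 for Bank1 (0.222) and 0.43 ± 0.28 for Cd79b (0.491). The difference of Cd79b turned to -0.55 when libraries were scaled to the Cd3 genes.

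These differences moved with which CD8 WT library was left out. With the library labelled CD8 WT replicate 2 left out, none of the 9 passed, beside 0.314% of all genes, the difference of H2-Eb1 was -1.28 (limma, adjusted p = 0.0571), and those of Cd74, Ms4a1 and Cd79a turned to 1.01, 0.56 and 0.32. Without CD8 WT replicate 1, which leaves the library that stood apart as the only CD8 WT library, 8 members passed as lower in KO and Cd79b as higher (0.73), beside 15.6% of all genes.

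Whether the KO difference was unlike in the 2 lineages was tested as an interaction. It passed in 0 of 9 members and in 0 of 11786 genes (0.0%), of which 819 or 6.95% had an unadjusted p under 0.05. The members' adjusted p ran from 0.701 to 0.983 (limma). Cd79b, which was higher in KO in CD8 cells and lower in KO in CD4 cells, had a difference of 1.09 ± 0.40 on the log2 scale (SE; limma, adjusted p = 0.701). Without CD8 WT replicate 1 the test called 6 members, beside 9.74% of all genes, with CD8 WT then held by the 1 library that stood apart. The interaction kept its sign with each library left out in turn for Cd79b and H2-Eb1, and turned for the other 7 members.

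The 9 genes differ in the length of genome they span, and the KO differences were set beside that. Ebf1 spans 387 kb and Bank1 273 kb, whereas the other 7 span 3.19 to 15.6 kb. Among the 317 tested genes that span at least 200 kb, 91.5% were lower in CD8 KO than in CD8 WT, with a median log2 difference of -1.27, and 91.5% were lower in CD4 KO than in CD4 WT, with a median of -1.54. Among the 6095 genes that span under 20 kb, 35.3% were lower in CD8 KO, with a median of 0.27, and 43.8% were lower in CD4 KO, with a median of 0.11. Ebf1 and Bank1, at -4.14 and -2.11 in CD8 cells and at -3.30 and -2.98 in CD4 cells, lay below the median of their length class. The part of the span in these differences was not tested.

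**Figure D4:**
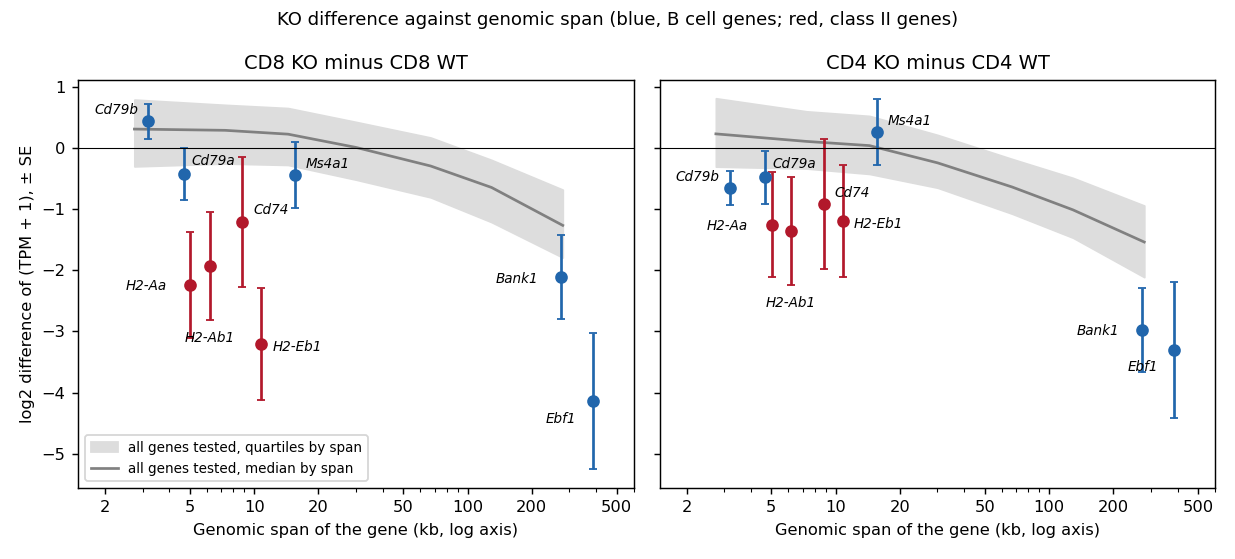
KO minus WT log2 difference of (TPM + 1) with its SE (vertical axis) against the genomic span of the gene in kb (horizontal axis, logarithmic) in CD8 cells (left) and CD4 cells (right). The grey line and band are the median and quartiles of all tested genes by span, blue points the 5 B cell genes and red points the 4 class II genes, with Bank1 (273 kb) and Ebf1 (387 kb) far to the right of the other 7 genes (3.19 to 15.6 kb).

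Other genes of B cells pointed the same way between the lineages. Of 23 further genes of B cell surface and signalling, all 23 were tested and 23 were lower in CD8 than in CD4 cells, beside 61.5% of all genes. Their median log2 difference was -1.40, against -0.13 over all genes, and 4 passed, beside 0.755% of all genes. Fcer2a, the low-affinity IgE receptor CD23, was at 17.9 and 28.4 TPM in CD8 KO, 22.0 and 51.2 TPM in CD8 WT, 101 and 57.8 TPM in CD4 KO and 285 and 334 TPM in CD4 WT (log2 difference -2.44 ± 0.33, SE; limma, adjusted p = 0.0101). Also among them were Fcmr, the IgM Fc receptor, listed as Faim3 (-1.94 ± 0.29; adjusted p = 0.0168), and Ly6d (-1.81 ± 0.30; adjusted p = 0.0282). Fcer2a, Faim3 and Ly6d also passed with either CD8 WT library left out. Leaving out any 1 of the CD8 KO or CD4 libraries ended the calls of Faim3 (adjusted p = 0.136 to 0.165) and Ly6d (0.153 to 0.203), and ended that of Fcer2a (0.0631 to 0.118) except without CD4 KO replicate 2 (0.0447). Cd37, a tetraspanin that T cells make as well, was at 312 to 405 TPM in CD8 libraries and at 367 to 523 TPM in CD4 libraries, and did not pass (limma, adjusted p = 0.736).

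Of 6 B cell transcription factors, 6 were lower in CD8 cells, beside 61.5% of all genes, and 1 passed, beside 0.755% of all genes. This was Pou2af1, the octamer co-activator OCA-B, at 30.5 and 27.2 TPM in CD8 KO, 29.6 and 81.1 TPM in CD8 WT, 86.3 and 84.8 TPM in CD4 KO and 224 and 308 TPM in CD4 WT (log2 difference -1.97 ± 0.31, SE; limma, adjusted p = 0.0233). Its call held without either CD8 WT library and was lost without any 1 of the CD8 KO or CD4 libraries (adjusted p = 0.136 to 0.200). Pax5, the factor that maintains B cell identity, was low throughout, at 0 to 3.20 TPM in CD8 libraries and 3.13 to 11.4 TPM in CD4 libraries. The 6 immunoglobulin constant genes of the list were not analysed here.

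Between genotypes none of these further B cell genes passed with all libraries. In CD4 cells all 23 surface and signalling genes were lower in KO, beside 58.0% of all genes, with a median of -0.71 against -0.16 over all genes, and 0 passed (limma, 5 at an unadjusted p under 0.05, beside 16.7% of all genes). In the fit without the library labelled CD8 WT replicate 2, Fcer2a, Cd72, Blnk, Lyn and the transcription factor Pou2af1 passed as lower in CD4 KO (limma, adjusted p = 0.0162 to 0.0445), beside 6.52% of all genes. Of the 6 transcription factors 4 were lower in CD4 KO, with a median of -0.97, and 2 had an unadjusted p under 0.05. The 2 that were higher were Pou2f2 (0.11) and Spib. Spib was at 163 and 174 TPM in CD4 KO and 48.8 and 150 TPM in CD4 WT. Both its KO libraries were thus above both WT libraries, beside 21.7% of all genes. In CD8 cells 20 of the 23 were lower in KO, beside 47.3% of all genes, with a median of -0.88 against 0.05 over all genes, and 0 passed (limma, 6 at an unadjusted p under 0.05, beside 15.1% of all genes). With the library labelled CD8 WT replicate 2 left out, 8 of 23 were lower in KO, with a median of 0.10.

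Class II molecules need helpers to load peptide. Of 13 genes of class II loading and regulation, 10 were lower in CD8 than in CD4 cells, beside 61.5% of all genes, and 0 passed (limma, 7 at an unadjusted p under 0.05, beside 11.0% of all genes). One of these 7, H2-DMa, was higher in CD8 cells (log2 difference 0.74). In CD8 KO against CD8 WT 10 were lower, beside 47.3% of all genes, and 1 passed, beside 0.297% of all genes. In CD4 KO against CD4 WT 11 were lower, beside 58.0% of all genes, and 0 passed (limma, 3 at an unadjusted p under 0.05, beside 16.7% of all genes). Without the library labelled CD8 WT replicate 2, H2-DMa, H2-DMb1, H2-DMb2 and H2-Ob passed as lower in CD4 KO (limma, adjusted p = 0.0141 to 0.0343), beside 6.52% of all genes. The gene that passed in CD8 cells with all libraries was H2-Ob, the beta chain of H2-O, which restrains peptide loading in B cells. It fell to 89.3 and 71.3 TPM in CD8 KO, against 339 and 358 TPM in CD8 WT, a log2 difference of -2.11 ± 0.27 (SE; limma, adjusted p = 0.0233), and it also passed with the library labelled CD8 WT replicate 2 left out (adjusted p = 0.0263). It was called in 11 of 19 settings, with adjusted p up to 0.618. Leaving out either CD8 KO library (adjusted p = 0.177 and 0.249) or any 1 of the CD4 libraries (0.0874 to 0.118) ended the call. In CD4 cells H2-Ob was at 217 and 258 TPM in KO and 455 and 457 TPM in WT, which did not pass with all libraries (limma, adjusted p = 0.137).

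H2-Ob and H2-DMa differed from the class II members in CD8 WT, where both replicates stood close. H2-DMa, the alpha chain of the peptide loader H2-DM, was at 176 and 160.4 TPM in CD8 KO, 391 and 363 TPM in CD8 WT, 94.4 and 101 TPM in CD4 KO and 239 and 223 TPM in CD4 WT. H2-DMb2, a beta chain of H2-DM, was at 155 and 70.8 TPM in CD8 KO, 162 and 1215 TPM in CD8 WT, 264 and 295 TPM in CD4 KO and 1024 and 819 TPM in CD4 WT, and H2-DMb1 was at 37.7 and 32.6 TPM in CD8 KO, 33.0 and 286 TPM in CD8 WT, 51.4 and 59.8 TPM in CD4 KO and 140.2 and 143 TPM in CD4 WT. H2-DMb1 and H2-DMb2 are close copies, and how reads were shared out between them is uncertain. Ciita, the master regulator of class II transcription, was at 0.297 to 8.43 TPM in CD8 libraries and at 8.81 to 23.2 TPM in CD4 libraries.

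Other antigen-presenting and blood cells were read from their own lists. The 10 dendritic cell genes summed to 39.9 and 35.7 TPM in CD8 KO, 24.8 and 54.7 TPM in CD8 WT, 52.1 and 43.7 TPM in CD4 KO and 63.3 and 35.1 TPM in CD4 WT. The 2 genotypes overlapped in CD8 cells and in CD4 cells, and within KO both CD8 libraries lay below both CD4 libraries. Clec9a and Xcr1, markers of a subset of conventional dendritic cells, were at most 0.0791 and 1.53 TPM in any library. In the library labelled CD8 WT replicate 2, Flt3, Itgax and Siglech of this list were at 10.7, 12.3 and 10.8 TPM. They were at most 2.19, 3.61 and 3.36 TPM in any other library. No other gene of the list was highest there. The 11 macrophage and monocyte genes summed to 796 and 755 TPM in CD8 KO, 380.0 and 3522 TPM in CD8 WT, 754 and 1047 TPM in CD4 KO and 120 and 73.9 TPM in CD4 WT. The 9 neutrophil genes summed to 602 and 1013 TPM in CD8 KO, 518 and 27137 TPM in CD8 WT, 655 and 1260.4 TPM in CD4 KO and 175 and 27.4 TPM in CD4 WT. In CD4 cells these myeloid sums were thus higher in KO, the reverse of the class II genes, with 0 of 9 macrophage and 0 of 9 neutrophil genes tested past the test (limma, 3 and 4 at an unadjusted p under 0.05, beside 16.7% of all genes). When the library labelled CD8 WT replicate 2 was left out, C1qb, Cd68 and Lyz2 of the macrophage list and Ltf, S100a8 and S100a9 of the neutrophil list passed as higher in CD4 KO (limma, adjusted p = 0.00447 to 0.0442), beside 6.52% of all genes.

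The library labelled CD8 WT replicate 2, where class II stood highest, also held the highest macrophage, neutrophil and erythroid sums, with Lyz2 at 2651 TPM, Ngp at 17333 TPM and Hba-a1 at 77329 TPM. Hba-a1 and Hba-a2 are near-identical copies whose reads may be divided either way. Its 5 plasma cell genes summed to 2973 TPM, of which Jchain, listed as Igj, made up 2140.1 TPM, against 253 to 555 TPM in the other libraries. The 6 natural killer cell genes summed to 28.2 to 114 TPM in all libraries. In these other lists 3 genes passed between the lineages, where 0.755% of all genes were called over both genotypes and 0.195% within WT. Thy1 of the T cell list (log2 difference 1.34 ± 0.25, SE; limma, adjusted p = 0.0449) and Ly6c2 of the macrophage and monocyte list, which naive CD8 T cells also make (3.58 ± 0.31; adjusted p = 0.000808), were higher in CD8 cells over both genotypes, and Hba-a2 was higher in CD8 WT than in CD4 WT (5.14 ± 0.78; adjusted p = 0.0407). The call of Ly6c2 held with each library left out in turn. That of Thy1 was lost without any 1 of the CD8 KO or CD4 libraries (adjusted p = 0.190 to 0.267), and that of Hba-a2 without any 1 library (0.0631 to 0.286) except CD8 WT replicate 1 (0.0294). The part of these other cell types in the class II level of the library labelled CD8 WT replicate 2 was not tested.

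**Figure D5:**
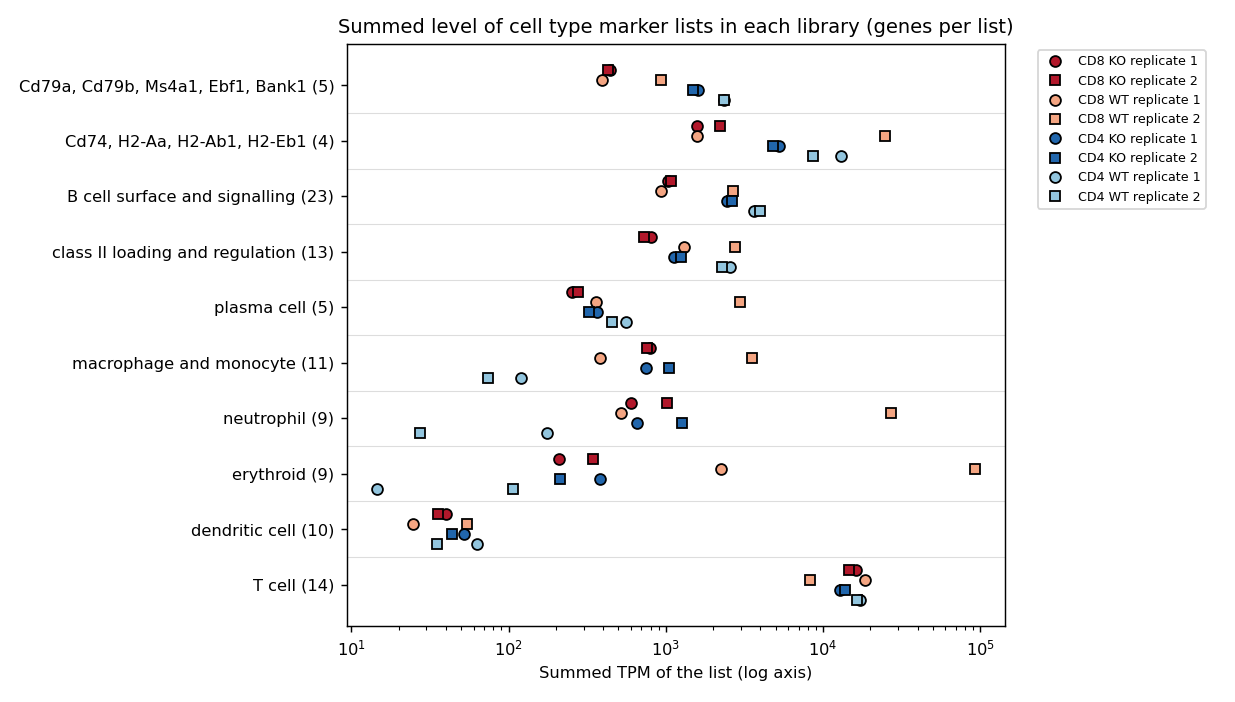
Summed TPM (horizontal axis, logarithmic) of the 9 genes in 2 groups and of 8 marker lists, 1 point per library, with the number of genes in brackets, colours for groups, circles for replicate 1 and squares for replicate 2. The library labelled CD8 WT replicate 2 was highest in class II, neutrophil (27137 TPM), erythroid (93129 TPM), macrophage (3522 TPM) and plasma cell genes (2973 TPM). It was lowest in T cell genes (8232 TPM), and its 5 B cell genes (928 TPM) lay below all 4 CD4 libraries. Its 23 genes of B cell surface and signalling (2676 TPM) lay above both CD4 KO libraries (2451 and 2624 TPM) and below both CD4 WT libraries (3669 and 3999 TPM).

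Last, the genes whose profile over the 8 libraries was most like that of the members were looked up among 9143 other genes whose mean reached 5 TPM. Likeness was Pearson's r with the mean log2(TPM + 1) of the members, as a description, since the 8 points share 4 groups and 1 library stands apart. Nearest to the 5 B cell genes were Rasgrp3 (r = 0.980), Pou2af1 (0.974), Swap70 (0.972) and Tnfrsf13b (0.971), followed by Prg4, 2010001M09Rik (Mzb1 in current usage), Nktr and Slc9a7 (0.955). Rasgrp3, a guanine nucleotide exchange factor of B cell receptor signalling, was at 6.82 and 8.65 TPM in CD8 KO, 6.83 and 30.3 TPM in CD8 WT, 21.7 and 23.3 TPM in CD4 KO and 48.3 and 58.3 TPM in CD4 WT. Nearest to the 4 class II genes were Entpd1 (r = 0.985), Cybb (0.980), Mrto4, Cyp4f18, H2-DMb1 (0.974), Blnk (0.966), Gpr137b-ps and Lat2 (0.964). Entpd1 encodes the ectonucleotidase CD39, Cybb a subunit of the phagocyte NADPH oxidase and Blnk the adaptor of B cell receptor signalling.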

How the data were processed

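Reads were aligned with HISAT to mm10, per the submitters' processing notes. For the version and the quantifier, nothing is stated in the sources used. The labels name DESeq2 as the authors' tool for differential expression, and it was not run here. Per the file headers, the authors deposited TPM, FPKM and coverage (a signal) per gene. TPM was used, FPKM served as an alternative, and the ratio of coverage to FPKM gave the depth. TPM keeps no read counts, so no counting interval is given, and a 0 is reported as listed.

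Rows sharing a symbol were summed (at most 261 symbols a library). The design allowed for counts, but the tables hold none, so log2(TPM + 1) was fitted with limma 3.58.1 in R 4.3.3, with an intensity trend and 1 mean for each of 4 groups, over the 11786 genes whose mean was 1 TPM or more. P-values were adjusted by Benjamini-Hochberg over all of them in each of 6 comparisons. The steps were tested on simulated data with known changes in CD4 KO against WT. Of genes changed by a log2 of 1, 2 and 3, the fit called 3 of 67, 49 of 67 and 58 of 66, with 7 false calls. Most changes of 1 were thus missed, and so were some of 2 and 3. The changed genes were drawn only from the better expressed genes of CD4 WT, with normally distributed noise. These shares therefore do not carry over to each member or to the other comparisons. Ebf1, for example, did not pass in CD4 KO against WT at -3.30 ± 1.11 (SE). A gene that did not pass may still differ by 1 or more. Members and the 11 further lists (116 genes, 5 matched by older symbols, 10 not analysed here) were chosen with earlier results of these data known. Named list genes are some of the 3 (6 in the B cell and class II loading lists) of highest mean TPM and all that passed with all libraries, except 1 gene that is counted in its list but not reported here by name. Clec9a, Xcr1, Ciita, Cd4 and Cd8a were added as defining markers, and Flt3 and Siglech of the dendritic cell list, after their values were seen. Genes named because they passed with the library labelled CD8 WT replicate 2 left out were also chosen after their values were seen. Promoters are RefSeq's (GRCm38.p6).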

Additional observations from a re-analysis of the deposited data

How the results depend on the processing

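The 6 comparisons were refitted with pseudocounts of 0.1 and 5, no filter, a minimum mean of 5 TPM, FPKM, 3 other scalings, library weights, only the 2 groups compared, a replicate block, and each library left out. Of the single-gene values, 890 kept direction and call, 68 gained the call, 22 lost it and 28 turned, and the cause was not tested. With all libraries 0 members were called in CD4 KO against WT, 0 in CD8 KO against WT, 0 in the difference of these, 1 in CD8 against CD4 within WT, 0 within KO and 3 averaged over genotypes. Leaving out 1 library at a time gave 0 to 6, 0 to 9, 0 to 6, 0 to 7, 0 to 5 and 1 to 8 members in that order. In CD4 KO against WT, library weights called 2 members, beside 1260 of 11786 genes. A fit of only the 2 groups called 3, beside 243 genes. Within WT, no filter called 0, beside 22 of 23337 genes, and only the 2 groups called 0, beside 0 genes. Within KO, FPKM and median-of-ratios scaling called 1 each, beside 41 and 50 genes. TPM without the erythroid list and scaling to Cd3d, Cd3e and Cd3g called 1 each there, beside 38 and 27 genes. Library weights called 3 within KO and only the 2 groups called 6, beside 353 and 141 genes. Averaged over genotypes, no filter, median-of-ratios scaling and scaling to the Cd3 genes called 1 each, Cd79b. Beside it they called 163 of 23337, 95 and 61 genes.

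Log2 differences that turned are given here, left-out libraries as the lowest and highest value, of which CD8 WT replicates 1 and 2 set the ends. In CD8 KO against WT the ranges were -1.18 to 0.32 for Cd79a, -1.45 to 0.56 for Ms4a1 and -3.43 to 1.01 for Cd74, and Cd79b turned to -0.55 with Cd3 scaling. Within WT they were -2.90 to 1.05 for Ebf1, -3.42 to 1.02 for Cd74, -2.22 to 1.36 for H2-Aa, -2.38 to 1.25 for H2-Ab1 and -1.71 to 2.14 for H2-Eb1, and H2-Aa turned to 0.0775 with Cd3 scaling. Averaged over genotypes they were -1.75 to 0.0611 for H2-Ab1 and -1.76 to 0.17 for H2-Eb1. In the difference of the KO differences they were -0.70 to 0.80 for Cd79a, -1.70 to 0.31 for Ms4a1, -2.82 to 1.13 for Ebf1, -0.23 to 1.95 for Bank1, -2.51 to 1.93 for Cd74, -2.78 to 0.81 for H2-Aa and -2.39 to 1.24 for H2-Ab1, and Cd79a, at 0.05 with all libraries, turned to -0.0548 with FPKM, -0.27 with median-of-ratios scaling, -0.80 with Cd3 scaling and -0.0196 without the erythroid list. Cd3 scaling moved the median of all genes to -0.85 in CD8 KO against WT, against 0.05 with TPM, and to 0.21 within WT, against -0.26.

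Replicate deviations of same-numbered libraries were weakly correlated between groups (-0.0359 to 0.0942). With 2 libraries a group, that cannot tell whether same-numbered libraries shared a mouse or a batch. With the replicate block the members called were 0, 0, 0, 1, 0 and 3, and the calls over all genes were 29 in CD4 KO against WT, where 84 were called without it, and 26 in CD8 KO against WT, where 35 were. Over all genes, leaving out 1 library gave 0 to 768 calls in CD4 KO against WT and 0 to 1842 in CD8 KO against WT. TPM gives no depth per gene, so counting error at the low levels of Ebf1 and Bank1 is unknown.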
